A study of Mus musculus with 80 samples.

Results

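The fast-demethylating tiles were 1187 stretches of 500 bp that had lost at least 50% of their CpG methylation within 72 h of 2i in the mouse embryonic stem cell (ESC) line E14. Tiles were fixed 500-bp steps along the 19 autosomes of the mouse build NCBIM37. A tile was tested when it held 20 or more cytosine calls at 3 or more positions in each of the 12 E14 libraries of reduced representation bisulfite sequencing (RRBS), an assay that reads methylation in CpG-rich restriction fragments. Of 55777 tiles tested, 21609 had a methylation level of 40% or more in serum (mean of 2 replicates), and 1187 of these were at 50% or less of their serum level at 72 h. The remaining 20422 are called the other methylated tiles. Because serum and 72 h of E14 chose the tiles, these groups are described and not tested.

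The study followed ESCs from serum medium with LIF to 2i, a serum-free medium (N2B27 with LIF) that holds the MEK inhibitor PD0325901 and the GSK3 inhibitor CHIR99021. RRBS was done on wild-type E14, on a UHRF1 WT and a UHRF1 KO line of E14 background, and on a TET WT and a TET TKO line of C57/129/FVB background, in serum and after 24, 48, 72, 96 and 168 h of 2i, with no 24 h and 72 h libraries in the TET lines. Wild-type E14 was also profiled by RNA-seq (serum, 6, 24 and 72 h, 3 replicates each) and by bisulfite sequencing of immunoprecipitated chromatin (ChIP-BS, with H3K9me2-bound and input DNA of serum and 2i cells, 2 replicates each). In UHRF1 KO (UHRF1-/- in the labels) the floxed gene was removed by a tamoxifen-inducible Cre from 48 h before the experiment, so its serum group is deleted too, whereas TET TKO (TET1/2/3-/-) carries a constitutive deletion. Each genotype was a single line, and nothing in the labels says that replicates were separate cultures, so p-values measure the spread between these libraries only. Every RRBS group had 2 libraries apart from UHRF1 WT in serum, where the file of replicate 2 held only 6 calls and was left out, and TET WT at 168 h, which had 1 sample.

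CpG methylation is copied to the new DNA strand after replication by DNMT1, which UHRF1 brings to hemimethylated sites. The TET enzymes oxidise 5-methylcytosine to 5-hydroxymethylcytosine and further products, a route by which methylation can be lost from single sites. Bisulfite sequencing reads 5-methylcytosine and 5-hydroxymethylcytosine alike, and both count as methylation here. Naive ESCs in 2i are known for a genome that is low in methylation.

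The files carry no gene annotation, and no genome of build NCBIM37 was used here. Gene starts were therefore located by matching the spacing of CpGs in RefSeq promoter windows (GRCm38.p6, 250 bases before to 50 after a start) to the cytosine positions in the files, which placed 11307 of 31396 autosomal windows (10011 genes). Only 6 fast tiles overlapped a placed window by 100 bases or more. The placed starts at these tiles are those of Atf7ip, Gm44140, CN725425, Spag17, Gm34222, Gm38634 and Gm39010. The sequences of 4 of their windows are shown as examples. They are RefSeq sequences of GRCm38.p6, written 5′ to 3′, and capitals mark the CpGs inside the fast tile that had 10 or more calls in both serum and 72 h of E14.
Atf7ip (chr6:136518601-136518900, + strand): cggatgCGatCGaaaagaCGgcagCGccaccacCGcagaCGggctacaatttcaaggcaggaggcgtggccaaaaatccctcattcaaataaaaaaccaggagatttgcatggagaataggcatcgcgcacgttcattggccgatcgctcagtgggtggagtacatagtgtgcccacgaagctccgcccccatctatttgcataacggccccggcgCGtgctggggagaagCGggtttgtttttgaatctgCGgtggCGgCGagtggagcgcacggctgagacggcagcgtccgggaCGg
CN725425 (chr15:91199196-91199495, + strand): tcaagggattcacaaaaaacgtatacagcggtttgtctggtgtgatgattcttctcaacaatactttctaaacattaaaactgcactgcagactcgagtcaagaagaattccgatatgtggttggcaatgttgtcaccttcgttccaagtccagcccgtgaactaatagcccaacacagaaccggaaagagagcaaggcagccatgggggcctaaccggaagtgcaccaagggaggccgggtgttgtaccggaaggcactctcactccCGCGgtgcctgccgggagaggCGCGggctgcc
Spag17 (chr3:99885167-99885466, + strand): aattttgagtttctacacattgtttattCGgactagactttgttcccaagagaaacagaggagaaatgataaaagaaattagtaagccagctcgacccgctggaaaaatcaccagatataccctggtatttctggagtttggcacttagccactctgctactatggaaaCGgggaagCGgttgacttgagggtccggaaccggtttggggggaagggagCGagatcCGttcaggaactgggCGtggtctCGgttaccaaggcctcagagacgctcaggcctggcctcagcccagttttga
Gm34222 (chr6:87581603-87581902, + strand): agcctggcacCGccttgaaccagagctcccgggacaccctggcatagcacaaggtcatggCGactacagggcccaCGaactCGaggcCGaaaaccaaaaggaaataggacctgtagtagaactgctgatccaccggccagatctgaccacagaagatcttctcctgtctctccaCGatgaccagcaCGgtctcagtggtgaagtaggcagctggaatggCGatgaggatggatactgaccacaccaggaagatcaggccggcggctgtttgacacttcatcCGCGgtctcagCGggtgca

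Atf7ip codes for a partner of the histone H3 lysine 9 methyltransferase SETDB1, and Spag17 for a protein of the motile cilium. The Atf7ip window holds 29 CpGs, of which 12 are in capitals, and these form a group at the upstream end of the window and a group around the start. It overlaps the window of the predicted gene Gm44140 on the opposite strand, and the same tile (chromosome 6, 136467001 to 136467500) covers both starts. At the 12 CpGs the level lay between 20.5% and 62.5% in E14 serum and between 9.76% and 42.1% at 72 h, with 11 to 73 calls behind a serum value. The CN725425 window (15 CpGs) carries its 4 measured CpGs downstream of the start, at 31.8% to 45.5% in serum and 5% to 16.1% at 72 h. In the Spag17 window (12 CpGs), 7 were measured, with only 12 to 19 calls each in serum. In the window of the predicted gene Gm34222 (15 CpGs), 11 were measured, at 27.3% to 71.1% in serum and 14.3% to 50% at 72 h. Of these 11, 10 were lower at 72 h and 1, at 27.3% in serum and 36.4% at 72 h, was higher.

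The tiles just inside and just outside the limit show that it divides a continuous range. The 3 members nearest to it stood at 50%, 49.99% and 49.96% of serum, in chr15:29325001-29325500, chr13:112982501-112983000 and chr5:123175001-123175500. The 3 nearest tiles outside it stood at 50.03%, 50.08% and 50.08%, in chr2:119621001-119621500, chr8:3432501-3433000 and chr4:130451001-130451500. Of the members, 439 lay within 5 percentage points of the limit and 75 were at or under 25% of serum, with a lowest value of 7.08% and a median of 42.7%. Among the other methylated tiles, 710 lay within 5 points above the limit, and their median was 76.3%. When tiles were chosen on replicate 1 alone (1387 tiles) and read in replicate 2, the median was 50.7% of serum, against 75.8% for the other methylated tiles. Chosen on replicate 2 (1961 tiles) and read in replicate 1, it was 57.2% against 77.6%, and 620 tiles were chosen in both. In both directions the loss was smaller in the replicate that did not choose the tiles and larger than in the other methylated tiles.

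In E14 the fast tiles stayed near their serum level for 24 h and fell from 48 h on. Their mean methylation in replicates 1 and 2 was 61.5% and 62.5% in serum, 66.0% and 63.3% after 24 h, 43.59% and 43.57% after 48 h, 26.5% and 23.9% after 72 h, 26.5% and 26.1% after 96 h, and 10.5% and 10.7% after 168 h. The 24 h libraries were the highest and the 168 h libraries the lowest, and the 72 h and 96 h libraries overlapped. The other methylated tiles began at 77.8% and 78.3% and were at 60.2% and 59.4% at 72 h and at 39.5% and 39.9% at 168 h. The median fast tile kept 103% of its serum level after 24 h, 69.8% after 48 h, 39.9% after 96 h and 13.8% after 168 h, against 102%, 91.7%, 76.8% and 48.9% for the median other methylated tile. At 168 h, 1159 of the 1187 fast tiles (97.6%) were at 50% of serum or less, against 52.1% of the other methylated tiles. These percents are taken of the same serum level that the rule used.

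**Figure D1:**
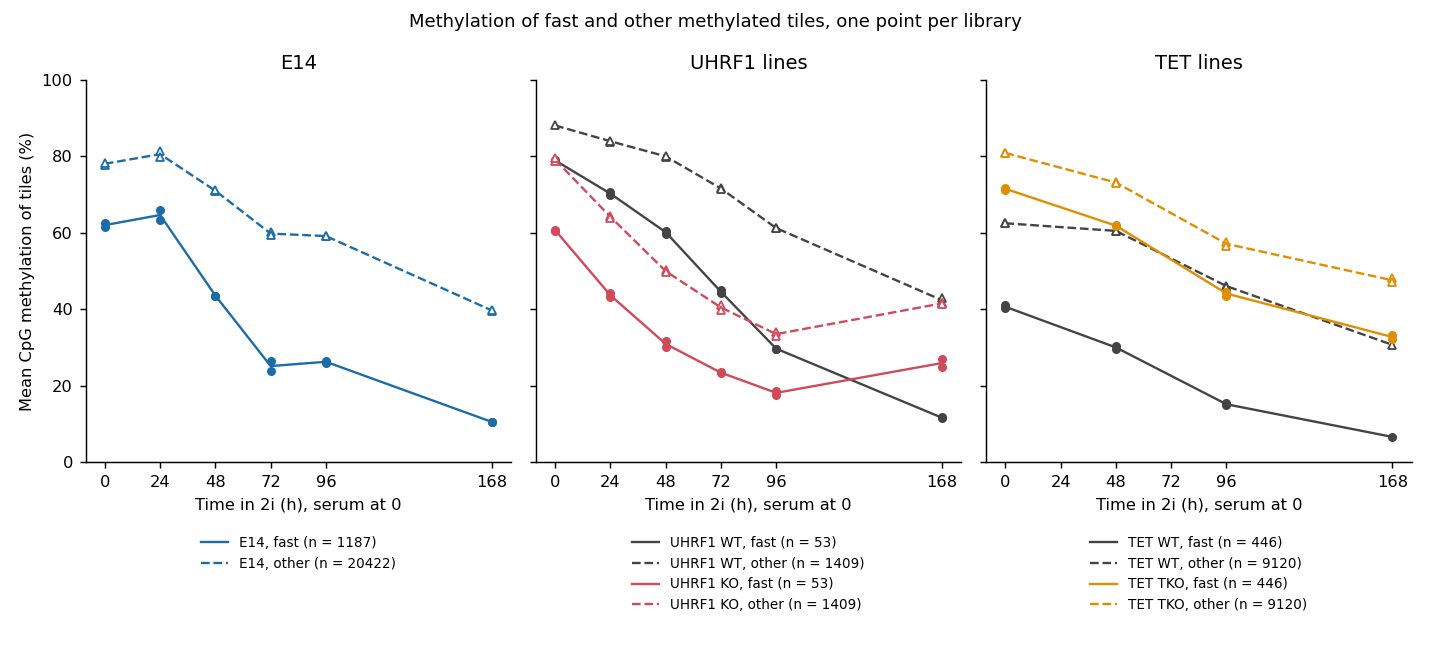
Mean CpG methylation in percent (y axis) against time in 2i in hours (x axis, serum at 0) for fast tiles (solid lines, filled circles) and other methylated tiles (dashed lines, open triangles) in E14, the UHRF1 lines and the TET lines. Each point is a library and lines join group means. In E14 the fast tiles go from 62.0% in serum to 10.6% at 168 h, in UHRF1 KO they are lower at 96 h than at 168 h, and in TET TKO they lie above TET WT at every time.

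The 48 h and 24 h libraries were not used by the rule. A tile was called when a quasi-binomial fit across all tiles of a line set gave a Benjamini-Hochberg adjusted p under 0.05 and the groups differed by 20 percentage points or more. Between 24 and 48 h, 513 fast tiles (43.2%) were called lower, beside 8.65% of all tiles tested and 13.3% of the other methylated tiles, and the median fast tile fell by 21.2 points. Most tiles tested were hardly methylated, with a median serum level of 7.98%, and the shares of the other methylated tiles are therefore given as well. Between 96 and 168 h, 328 fast tiles (27.6%) were called lower, beside 17.7% of all tiles and 46.5% of the other methylated tiles, whose level at 96 h was higher. The median fast tile fell by 14.9 points in this interval and the median other methylated tile by 19.5 points. Where a fit left 1 library in the 24 h or 48 h group, the share of all tiles called was lower, and so was the count of fast tiles between 24 and 48 h. With limma on log2 ratios in place of the quasi-binomial fit it was 1.35% between 24 and 48 h and 14.6% between 96 and 168 h, beside 0.434% and 3.96% of all tiles and 0.646% and 9.79% of the other methylated tiles. With a fit of the compared libraries alone it was 14.1% between 24 and 48 h, beside 3.11% of all tiles and 4.65% of the other methylated tiles. With no minimum difference it was 65.9% between 96 and 168 h, beside 32.8% of all tiles.

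The 5 fast tiles with the lowest percent of serum at 72 h, among 253 with 50 or more calls in each E14 library, are given as a description. They were picked for a low value at 72 h, so nothing is read from a higher value at the next time. On chromosome 7 (119904501 to 119905000, 9 CpGs), 535.4 kb from the nearest placed start, methylation was 74.0% and 71.1% in serum, 65.2% and 59.15% after 24 h, 33.3% and 43.4% after 48 h, 10.1% and 12.3% after 72 h, 23.1% and 28.1% after 96 h, and 6.90% and 9.32% after 168 h. Inside Usp46, which codes for a deubiquitinating enzyme (chromosome 5, 74407501 to 74408000, 13 CpGs), the level was 79.3% and 81.8% in serum, 68.8% and 72.7% after 24 h, 49.2% and 35.6% after 48 h, 17.0% and 11.8% after 72 h, 12.3% and 18.8% after 96 h, and 4.41% and 4.31% after 168 h. The serum libraries were the highest and the libraries from 72 h on did not overlap with those up to 48 h. The other 3 of the 5, in chr2:75590501-75591000, chr2:30462001-30462500 and, inside Anks1, chr17:28137001-28137500, were at 15.6%, 17.6% and 18.8% of serum at 72 h. Each of these 5 tiles was called lower at 48 h than at 24 h apart from chr2:75590501-75591000, whose fall of 19.6 points missed the minimum of 20 points (adjusted p = 0.0213, quasi-binomial fit).

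The fast tiles were mostly single tiles, and they were sparser in CpGs than the tiles tested as a whole. CpGs of a tile, here and for named tiles, were counted from positions with a call in any RRBS or ChIP-BS library. CpGs that were never read are missing. By this count a fast tile held a median of 11 CpGs, the other methylated tiles 12 and all tiles tested 19. By positions with a call in the ChIP-BS libraries, the planned measure, the medians were 10, 12 and 12. Counted as positions covered by RRBS in E14, the medians were 7 in fast tiles, 7 in the other methylated tiles and 13 in all tiles tested. Of methylated tiles with 7 CpGs or fewer 6.47% were fast, and this share was 6.30% at 8 to 11 CpGs, 5.38% at 12 to 15, 3.94% at 16 to 23 and 3.31% at 24 or more. The share also fell with the serum level that the rule used, from 14.9% of tiles at 40% to 60% in serum to 7.53% at 60% to 80% and 1.44% above 80%. The median serum level of fast tiles was 62.6% in the sparsest class and 46.0% in the densest. Fast tiles had a median of 64.2 calls a library and the other methylated tiles 69.8.

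**Figure D2:**
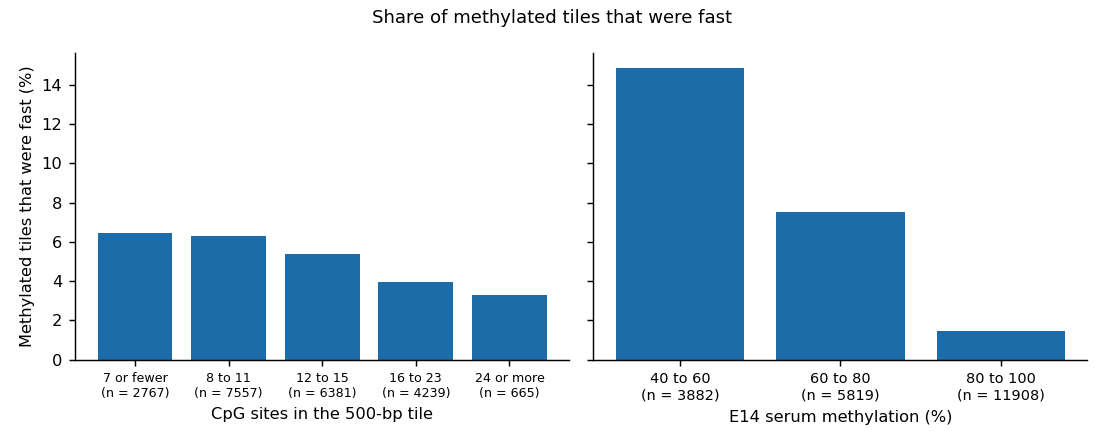
Percent of methylated tiles that were fast (y axis), by CpG sites with a call in any library (left) and by E14 serum methylation in percent (right). CpG sites are counted per 500-bp tile. The n under each bar is the number of methylated tiles in the class. The share runs from 6.47% at 7 CpGs or fewer to 3.31% at 24 or more, and from 14.9% to 1.44% across the serum classes.

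Most fast tiles lay away from the gene starts that could be placed. Over the 1160 fast tiles on chromosomes with placed starts, the median distance to the nearest was 39.4 kb, against 50.4 kb for 19812 other methylated tiles and 17.8 kb for all 54150 tiles tested. Within 10 kb of a placed start lay 192 fast tiles (16.6%), 15.1% of the other methylated tiles and 43.0% of all tiles. The 6 tiles at promoter windows were 0.517% of the fast tiles, against 0.681% of the other methylated tiles and 16.1% of all tiles. Inside the span of a placed gene lay 472 fast tiles (40.7%), against 36.9% and 41.4%. Exons and introns could not be told apart, and a gene whose start was not placed is missing from these counts. Of 31396 windows, 9701 had under 4 CpGs and were not searched, and a placed window needed 12 matched positions. Starts poor in CpGs are therefore missing in particular, and the part of this in the distances and shares was not tested. Gene positions on chromosome 18, which holds 27 fast tiles, were not analysed here.

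Adjacent fast tiles were few. The 1187 tiles made 1157 single tiles and 15 runs of 2, and the median gap to the next fast tile was 599.5 kb. Of the 84 fast tiles with an adjacent methylated tile, 30 (35.7%) had a fast neighbour, against 57 of 2250 other methylated tiles (2.53%). Adjacent tiles can share sequencing reads and fragments, and the part of that in the neighbour count was not tested. By chromosome, 4.12% (chromosome 10) to 6.94% (chromosome 6) of methylated tiles were fast.

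H3K9me2, dimethylation of histone H3 at lysine 9, is a repressive mark that UHRF1 can bind. In ChIP-BS of wild-type E14 the calls of H3K9me2-bound and input DNA were summed in 10-kb windows that hold tiles, and each bound library was divided by the mean of the 2 input libraries of its medium after scaling to the totals. The median log2 ratio of bound to input in the 1148 windows with fast tiles was -0.58 and -0.55 in serum and -1.44 and -1.52 in 2i (2 bound libraries each), against -0.26 and -0.24 and -0.75 and -0.88 for the other methylated tiles. It was 0.13 and 0.14, and 0.08 and 0.06, over all windows with input calls. All tiles tested stood at -0.72 and -0.69 in serum, lower than the fast tiles, and at -1.27 and -1.38 in 2i, higher than the fast tiles in these windows. Both fast-tile values in 2i lay below both values in serum, and in each library the fast tiles were below the other methylated tiles. In 2-kb windows the mean of the 2 medians of fast tiles was nearer to 0, at -0.39 in serum and -0.73 in 2i. There the fast tiles in 2i, at -0.71 and -0.75, lay above all tiles tested, at -0.78 and -0.82, so that the order of these sets in 2i turned with the window size. The other methylated tiles, at -0.46 and -0.53, were above the fast tiles in both window sizes.

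At the fast tiles themselves the same libraries gave 57.4% and 55.4% methylation in input DNA of serum cells and 16.1% and 14.5% in 2i, from 3815 to 4961 calls a library. In H3K9me2-bound DNA it was 73.5% and 74.1% in serum and 30.6% and 29.1% in 2i, from 1394 to 3822 calls. Bound DNA was higher than input in both media with no overlap, and 2i was lower than serum in both fractions. The same directions were seen over all calls of each library, at 81.3% and 81.2% in bound against 74.9% and 73.8% in input DNA of serum cells, and at 42.6% and 42.7% against 37.4% and 37.9% in 2i. The other methylated tiles stood at 82.9% and 83.0% in bound and 81.6% and 81.0% in input DNA of serum cells, and at 69.7% and 70.7% against 68.1% and 68.8% in 2i. These are shares of summed calls, in which a tile with many calls weighs more. In 2i, with each tile weighted equally, 2942 other methylated tiles shared by the libraries stood at 50.0% and 49.0% in bound DNA. Input DNA stood at 44.2% and 44.8% there. In serum, 4151 shared tiles stood at 83.4% and 84.6% in bound and 79.5% and 78.2% in input DNA. The libraries covered different tiles, with 233 to 533 fast tiles behind a bound value and 599 to 687 behind an input value. At the 171 fast tiles with calls in each serum library, bound DNA stood at 78.23% and 78.24% and input at 67.3% and 62.4%. At the 73 with calls in each 2i library, bound DNA stood at 34.7% and 34.0% and input at 26.4% and 21.3%, and with each tile weighted equally at 29.3% and 31.4% against 26.8% and 26.6%. The gap between bound and input DNA was thus smaller at shared fast tiles than over all fast tiles with calls. At the 45 fast tiles with calls in every ChIP-BS library, equal weights gave overlapping values in 2i. There bound DNA stood at 29.25% and 31.59% and input at 30.05% and 28.55%. These are values of 2 libraries each at few calls a tile, and they were not tested.

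UHRF1 is needed to copy methylation, and its lines ask how the fast tiles behave without that step. In the UHRF1 lines the demand for 20 calls in each of the 23 usable libraries left 53 of the 1187 fast tiles and 1409 other methylated tiles, of 22700 tiles tested. Of the 53, 44 came from the lowest serum class of E14, 40% to 60%. In UHRF1 WT, the control line of E14 background, fast tiles fell over the whole course. The 44 tiles at 40% to 60% in E14 serum had a median of 80.3% in UHRF1 WT serum. The mean over the 53 was 78.9% in the single serum library, 69.9% and 70.5% after 24 h, 59.8% and 60.5% after 48 h, 44.2% and 44.98% after 72 h, 29.72% and 29.74% after 96 h, and 11.8% and 11.6% after 168 h. Each time was lower than the one before with no overlap of libraries. At 72 h the median fast tile kept 56.3% of its serum level, and 20 of 53 were at 50% or less, against 82.6% and 27 of 1403 for the other methylated tiles. UHRF1 WT at 72 h was called lower than in serum at 44 fast tiles (83.0%), beside 4.21% of all tiles and 30.4% of the other methylated tiles, with the lone serum library assumed to vary like the rest. With limma on log2 ratios this share was 13.2%, beside 0.233% of all tiles and 2.63% of the other methylated tiles. With only the libraries compared required to be covered, 1084 fast tiles could be tested and 912 (84.1%) were called, beside 18.6% of all tiles and 30.8% of the other methylated tiles in that fit.

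Without UHRF1 the fast tiles were lower than in UHRF1 WT from serum to 96 h and higher at 168 h. The means in UHRF1 KO were 60.8% and 60.6% in serum, 44.2% and 43.1% after 24 h, 30.1% and 31.9% after 48 h, 23.3% and 23.6% after 72 h, 17.7% and 18.7% after 96 h, and 27.01% and 24.9% after 168 h. At each of these times the KO libraries did not overlap with the WT libraries, and 168 h was higher than 96 h in both replicates. The 168 h libraries of KO read more positions than UHRF1 libraries of like depth. The part of this in the higher level was not tested. With the lone WT library of serum again assumed to vary like the rest, the fast tiles called lower in KO numbered 21 of 53 (39.6%) in serum, 37 (69.8%) after 24 h, 41 (77.4%) after 48 h, 29 (54.7%) after 72 h and 14 (26.4%) after 96 h. Beside these stand 2.17%, 4.48%, 6.96%, 6.86% and 5.19% of all tiles, and 12.6%, 44.3%, 79.1%, 90.3% and 74.3% of the other methylated tiles. At 72 h and 96 h the median fast tile of UHRF1 WT kept 56.3% and 34.99% of serum, against 82.6% and 70.5% in the other methylated tiles. That left the fast tiles less room for a difference of 20 points at these times. The share of fast tiles was above that of the other methylated tiles in serum and at 24 h and below it at 72 h and 96 h in this fit. By limma on log2 ratios the other methylated tiles had 0.213% in serum, 10.6% after 24 h, 37% after 48 h, 0% after 72 h and 0.284% after 96 h, so that the order was not seen at 72 h and the shares were close at 24 h. In KO itself 46 fast tiles (86.8%) were called lower at 72 h than in serum, beside 8.11% of all tiles and 95.2% of the other methylated tiles. The median difference of KO from WT in fast tiles was -17.0 points in serum, -33.3 at 48 h and -11.6 at 96 h. Over 976 fast tiles covered in the compared libraries at 72 h, 689 (70.6%) were called lower, beside 37.8% of all tiles and 91.9% of the other methylated tiles in that fit. The same kind of fit ended the calls at the early times. It called 0 of 216 fast tiles in serum and 0 of 215 after 24 h, with 0% and 0.00674% of all tiles and 0% and 0.0472% of the other methylated tiles called. Lower in KO at an unadjusted p under 0.05 were 106 and 165 of these fast tiles (49.1% and 76.7%), beside 15.8% and 19.6% of all tiles and 29.1% and 68% of the other methylated tiles. At 48 h it called 67 of 206 (32.5%), beside 5.46% of all tiles and 28.0% of the other methylated tiles, and at 96 h 63 of 883 (7.13%), beside 11.4% and 32.1%.

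At 168 h none of the 53 fast tiles was called lower in KO by the quasi-binomial fit, beside 0.361% of all tiles and 5.18% of the other methylated tiles. The median fast tile of UHRF1 WT was then at 9.82% of its serum level, so most could not be lower by the minimum of 20 points. Called higher, a direction that was not planned, were 12 (22.6%), beside 0.48% of all tiles and 3.83% of the other methylated tiles. Where a fit left 1 library in a 168 h group, the share of all tiles called higher was lower, and so was the count of fast tiles. By limma 7 fast tiles (13.2%) were called higher in KO, beside 0.167% of all tiles and 1.06% of the other methylated tiles. A fit of the compared libraries alone called 0 of 137 fast tiles higher, with 0% of all tiles and 0% of the other methylated tiles called. At an unadjusted p under 0.05, 30 fast tiles were higher and none lower by the quasi-binomial fit, and 25 higher and none lower by limma. These are 56.6% and 47.2% of the fast tiles. Of all tiles, 16.3% and 12.7% passed in either direction, and 3.09% and 2.14% were lower in KO. Whether the loss from serum to 72 h itself differed between KO and WT was tested as an interaction on the log odds of methylation, and no fast tile was called, beside 0.405% of all tiles and 4.61% of the other methylated tiles. Here 11 fast tiles had an unadjusted p under 0.05 by the quasi-binomial fit, 5 with a larger and 6 with a smaller fall in KO, and 1 by limma. The share by the quasi-binomial fit was 20.8%, beside 12% of all tiles, and by limma 1.89%, beside 6.38%. Larger and smaller falls are counted in percentage points, whose sign can differ from that on the log odds. The shares of all tiles and of the other methylated tiles called by this interaction count larger falls in KO only. The median difference of the falls was -4.53 points, with quartiles of -14.6 and 7.57 points, against a median of -24.0 points in the other methylated tiles. A contrast of the change from 96 to 168 h, added after the data were seen, was called higher in KO at 33 fast tiles (62.3%), beside 3.92% of all tiles and 42.3% of the other methylated tiles. This share was 24.5% without replicate 1 of UHRF1 WT at 168 h, 24.5% without replicate 2 of UHRF1 KO at 168 h, and 5.66% with limma on log2 ratios. Within the lines, KO was called higher at 168 h than at 96 h at 1 fast tile (1.89%), beside 0.0617% of all tiles and 0.781% of the other methylated tiles. WT was called lower at 21 (39.6%), beside 2.81% of all tiles and 36% of the other methylated tiles. The median changes of the other methylated tiles, 8.29 points in KO and -18.7 in WT, lay near those of the fast tiles, 7.47 and -18.1.

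Some of these counts rest on few libraries. In serum the share was 18.9% without replicate 2 of UHRF1 KO serum, and at 24 h it was 45.3% without replicate 1 of UHRF1 KO at 24 h. With limma on log2 ratios the shares from serum to 96 h were 1.89%, 11.3%, 34%, 0% and 0%, beside 0.0264%, 0.877%, 2.96%, 0.00881% and 0.022% of all tiles. Lower in KO at an unadjusted p under 0.05 by limma were 35.8%, 67.9%, 73.6%, 56.6% and 30.2% of the 53 fast tiles, beside 3.67%, 7.94%, 10.4%, 11.1% and 9.55% of all tiles and 29.7%, 64.7%, 83.2%, 83% and 66.7% of the other methylated tiles. With no minimum difference the quasi-binomial fit called 84.9% of fast tiles at 72 h, beside 15% of all tiles.

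The tile near Wnt11, a secreted Wnt ligand, on chromosome 7 (106020501 to 106021000, 13 CpGs, 37.1 kb downstream of the placed start), was among the 3 with the largest difference at 72 h. UHRF1 WT stood at 95.6% in serum, 95.4% and 92.3% after 24 h, 82.5% and 83.9% after 48 h, 65.2% and 68.4% after 72 h, 53.8% and 39.7% after 96 h and 14.04% and 11.5% after 168 h. UHRF1 KO stood at 79.7% and 67.5% in serum, 22.9% and 68.2% after 24 h, 21.7% and 21.2% after 48 h, 28.2% and 14.5% after 72 h, 18.1% and 16.2% after 96 h, and 13.9% and 22.2% after 168 h. The KO replicates of 24 h were far apart. KO and WT overlapped at none of the times from serum to 96 h, and their difference at 168 h was 6.39 points with an adjusted p of 0.603 (quasi-binomial fit). At the tile of chromosome 19 (46597001 to 46597500) KO was lower by 42.0 points at 72 h, and at chromosome 4 (127003001 to 127003500), 11.97 kb upstream of Gja4, by 39.2 points.

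Otud7a, a deubiquitinase gene, holds a fast tile that went the other way (chromosome 7, 70899501 to 70900000, 28 CpGs). At 72 h it stood at 23.5% and 23.9% in UHRF1 WT and at 33.8% and 24.2% in KO, and at 168 h at 3.96% and 2.25% in WT and 32.7% and 35.7% in KO. The 168 h difference of 31.8 points was called (adjusted p = 9.6e-05, quasi-binomial fit).

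The TET lines ask the same of oxidation. In the TET lines 446 fast tiles and 9120 other methylated tiles were covered in all 15 libraries, of 39358 tiles tested. Fast tiles were far lower in TET WT than in TET TKO at every time. In TET WT the mean was 41.0% and 40.3% in serum, 29.8% and 30.3% at 48 h, 14.97% and 15.4% at 96 h, and 6.68% in the single library of 168 h. In TET TKO it was 71.3% and 71.7% in serum, 61.7% and 62.0% after 48 h, 44.6% and 43.6% after 96 h, and 33.2% and 32.3% after 168 h. The genotypes did not overlap, and TET TKO at 96 h was above TET WT in serum. The other methylated tiles were at 62.5% and 62.5% in TET WT and 80.9% and 80.9% in TET TKO in serum, and at 46.2% and 46.0% and at 57.6% and 56.6% at 96 h.

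TET TKO was called higher than TET WT at 327 fast tiles (73.3%) in serum, 308 (69.1%) after 48 h, 321 (72.0%) after 96 h and 313 (70.2%) after 168 h. TET WT has a single library at 168 h, which was assumed to vary like the rest. Over all tiles these shares were 14.2%, 10.3%, 9.28% and 12.3%, and over the other methylated tiles 39%, 23.5%, 24.7% and 41.2%. The median difference in fast tiles was 30.0 points in serum, 32.9 after 48 h, 29.7 after 96 h and 26.6 after 168 h, against 16.2, 10.6, 10.1 and 17.9 points in the other methylated tiles. The difference from the other methylated tiles was also seen within serum classes of E14. At 96 h the median of TKO minus WT was 26.6 points in fast tiles against 18.6 in other tiles at 40% to 60% in E14 serum, 31.8 against 15.9 at 60% to 80%, and 32.4 against 4.29 above 80%. With only the compared libraries required to be covered, 611 of 968 fast tiles (63.1%) were called higher in serum, 199 of 654 (30.4%) at 48 h, 174 of 605 (28.8%) at 96 h and 620 of 1089 (56.9%) at 168 h. In these fits the shares over all tiles were 16.6%, 4.84%, 3.78% and 13.0%, and over the other methylated tiles 31.8%, 8.10%, 7.66% and 28.3%.

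**Figure D3:**
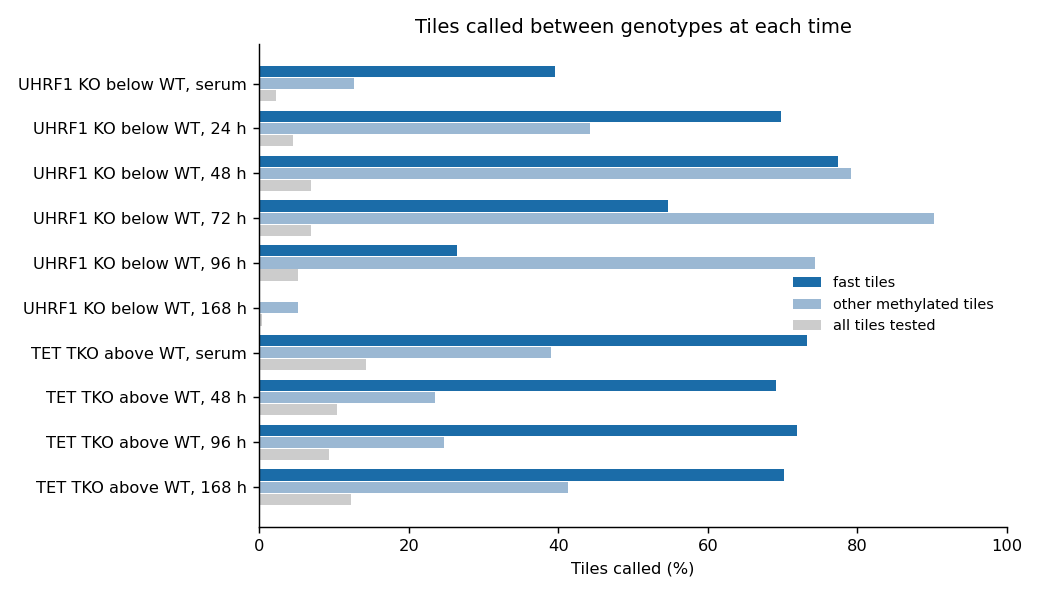
Percent of tiles called between genotypes (x axis) for each contrast (y axis): fast tiles (dark), other methylated tiles (light) and all tiles tested (grey). Fast tiles called lower in UHRF1 KO reach 77.4% at 48 h and 0% at 168 h, while those called higher in TET TKO lie between 69.1% and 73.3% at the 4 times. Most fast tiles of UHRF1 WT were too low at 168 h for KO to be 20 points lower. At 72 h and 96 h they left less room for such a difference than the other methylated tiles.

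Loss in 2i took place with and without the TET enzymes. From serum to 96 h, 279 fast tiles (62.6%) were called lower in TET WT, beside 8.49% of all tiles and 31% of the other methylated tiles. In TET TKO 309 (69.3%) were called lower, beside 16.7% and 60.7%. The median fall was 24.5 points in TET WT and 27.7 points in TET TKO. As a percent of serum, the median fast tile kept 33.7% in TET WT at 96 h (382 tiles at 20% or more in serum) and 61.3% in TET TKO (440 tiles), against 73.9% and 70.7% for the other methylated tiles. The interaction of genotype and time on the log odds called no fast tile in either direction. Counted only for a smaller fall in TKO, it called 0% of all tiles and 0% of the other methylated tiles. At an unadjusted p under 0.05 stood 99 fast tiles by the quasi-binomial fit and 54 by limma. These are 22.2% and 12.1% of the fast tiles beside 13.2% and 8.78% of all tiles, in either direction. In percentage points the fall in TKO was larger at 40 and smaller at 59 of the 99, and larger at 20 and smaller at 34 of the 54. Those with a smaller fall were 13.2% of fast tiles, beside 3.41% of all tiles and 1.34% of the other methylated tiles. By limma they were 7.62%, beside 2.44% and 0.395%. The sign in points can differ from that on the log odds, which the test used. When the fit was run on methylated tiles only, 7 fast tiles (1.57%) were called, beside 0.167% of all tiles in that fit.

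Where a fit left 1 library in the serum or 96 h group of TET TKO, the share of all tiles called lower at 96 h was smaller. So was the count of fast tiles in TET TKO. With limma on log2 ratios this count was 40.8% in TET TKO and 32.5% in TET WT, beside 10.4% and 1.26% of all tiles and 40.4% and 3.08% of the other methylated tiles. A fit of the 4 TET TKO libraries alone called 211 of 579 fast tiles (36.4%), beside 9.83% of all tiles and 32.1% of the other methylated tiles. A fit of the 4 TET WT libraries alone called none of 1114 fast tiles and 0% of all tiles. There 883 of these fast tiles (79.3%) were lower at an unadjusted p under 0.05, beside 35% of all tiles and 57.6% of the other methylated tiles.

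The 3 fast tiles with the largest difference at 96 h were partly in gene bodies. Lbr codes for a receptor of the inner nuclear membrane that binds lamin B, and its tile (chromosome 1, 183751501 to 183752000, 9 CpGs, 20.8 kb downstream of the start) stood at 50.0% and 41.5% in TET WT serum, 44.0% and 24.3% after 48 h, 12.8% and 13.8% after 96 h and 5.47% after 168 h. In TET TKO it stood at 96.2% and 94.6%, 73.5% and 75%, 87.85% and 75%, and 66.3% and 62.0% at these times. The genotypes did not overlap at any of them, and the difference at 96 h was 70.6 points (adjusted p = 2.74e-06, quasi-binomial fit). The tile in both Pom121, which codes for a nuclear pore protein, and Hip1 (chromosome 5, 135859501 to 135860000) differed by 67.1 points at 96 h. The tile of chromosome 2 (132475501 to 132476000), 131.6 kb upstream of Chgb, differed by 68.2 points at 96 h and by 15.3 points in serum. Here TET WT fell from 69.3% and 77.0% to 5.56% and 14.5% and TET TKO from 93.4% and 80% to 78.3% and 77.3%, and the interaction had an adjusted p of 0.131.

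The tiles with the most calls in all libraries did not all take the same course. Inside Acin1, a gene for a chromatin-condensing factor (chromosome 14, 55262501 to 55263000, 21 CpGs), TET WT was already at 7.92% and 12.04% in serum and TET TKO at 75.7% and 74.5%, while E14 was at 49.5% and 45.3% and UHRF1 WT at 87.3%. Over these lines the serum level of this tile thus ran from under 10% to over 80%. In Otud7a TET TKO was the lower line in serum, at 22.9% and 16.7% against 31.5% and 33.9% in TET WT, a difference of 12.2 points that was under the minimum of 20 (adjusted p = 0.00274, quasi-binomial fit). The fast tile in Arhgef18, which codes for a guanine nucleotide exchange factor (chromosome 8, 3482501 to 3483000, 25 CpGs), and the tile 6.70 kb into Tent5b (chromosome 4, 133042501 to 133043000, 26 CpGs) were lower in UHRF1 KO at 72 h by 29.3 and 27.3 points and higher in TET TKO at 96 h by 24.7 and 19.2 points, of which the last missed the minimum of 20. The tile of chromosome 6 (30754501 to 30755000, 6 CpGs) was lower in UHRF1 KO at 72 h by 19.9 points, just under the minimum, and differed by 5.95 points at 96 h in the TET lines (adjusted p = 0.226).

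At the Atf7ip start, E14 stood at 42.5% and 44.9% in serum, 36.3% and 33.5% after 24 h, 53.2% and 38.7% after 48 h, 21.5% and 17.6% after 72 h, 20.9% and 27.6% after 96 h, and 17.0% and 5.67% after 168 h. UHRF1 WT stood at 47.4% in its single serum library and at 8.33% and 10.0% at 24 h. UHRF1 KO was at 15.4% and 12.7% already in serum and at 2.27% and 13.9% at 24 h. TET WT went from 41.3% and 29.5% in serum to 17.7% and 17.3% after 48 h, 11.9% and 10.5% after 96 h and 2.10% after 168 h. TET TKO stood at 58.1% and 33.3% in serum, 41.0% and 59.1% after 48 h, 46.3% and 36.5% after 96 h and 40.1% and 41.3% after 168 h. TET TKO and TET WT overlapped in serum and at no later time, and were 38.2 points apart at 168 h (adjusted p = 5.76e-05, quasi-binomial fit, with the lone TET WT library assumed to vary like the rest). In TET TKO the change from serum to 96 h was -2.49 points (adjusted p = 0.846). At the 12 CpGs printed in capitals above, levels at 168 h in TET TKO lay between 21.9% and 48.1%.

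At the CN725425 start (chromosome 15, 91029501 to 91030000), E14 stood at 43.1% and 39.0% in serum, 17.3% and 15.5% at 72 h and 6.67% and 6.54% at 168 h. TET WT stood at 35.9% and 22.4% in serum and 7.41% and 4.85% at 96 h, and TET TKO at 22.9% and 38.6% in serum and 28.3% and 30.0% at 96 h. The serum libraries of the genotypes overlapped and those of 96 h did not. The Spag17 tile (chromosome 3, 99689001 to 99689500) was at 46.8% and 52.1% in E14 serum and 28.4% and 15.9% at 72 h, but at 41.6% and 29.8% at 96 h, above both 72 h libraries. Gm34222 (chromosome 6, 87531501 to 87532000) went from 52.3% and 53.4% in E14 serum to 28.6% and 22.0% at 72 h and to 8.87% and 11.5% at 168 h.

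**Figure D4:**
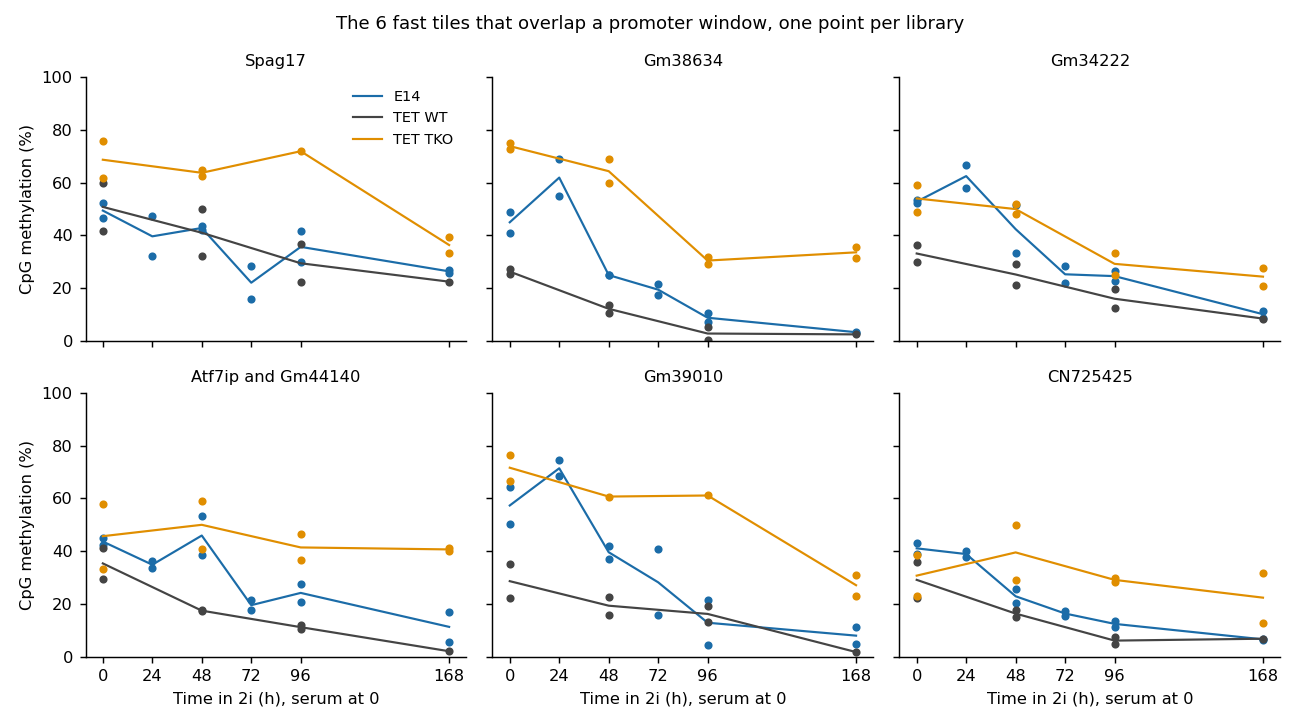
CpG methylation in percent (y axis) against time in 2i in hours (x axis) at the 6 fast tiles that overlap a promoter window, with a point per library and lines through group means for E14, TET WT and TET TKO. At Atf7ip and Gm44140 TET TKO stays between 33.3% and 59.1% at all 4 times, while TET WT ends at 2.10%.

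RNA of the genes beside fast tiles was read in wild-type E14 as deposited log2 values corrected for gene length and depth. The cells carried ESC markers: all 8 ESC genes, among them Pou5f1 and Nanog, stood between the 95.8th and 99.6th percentile of genes, and the 10 markers of endoderm, mesoderm, neural cells and fibroblasts between the 27.1th and 71.7th, with Col1a1 highest. Among 25899 genes, limma called 8.8% higher and 7.54% lower at 72 h than in serum (adjusted p under 0.05 and a log2 change of 1 or more). Of 177 genes in the table that start within 10 kb of a fast tile, 39 (22%) were higher and 17 (9.6%) lower, with a median log2 change of 0.30. Of 1893 genes near other methylated tiles 10.8% were higher and 9.51% lower, and of all 7704 placed genes 10.4% and 9.25%. The median log2 changes of these 2 sets were -0.0458 and -0.0615, and that of all genes was -0.0965. This comparison of nearby genes was not planned. Among genes with a mean log2 value over 0, 26 of 134 near fast tiles (19.4%) were higher, against 9.42% near other methylated tiles and 9.71% of all genes. A tile can lie near several genes, and the 177 genes lay near 153 tiles. In bulk RNA, fewer cells that express a gene and less RNA per cell cannot be told apart.

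**Figure D5:**
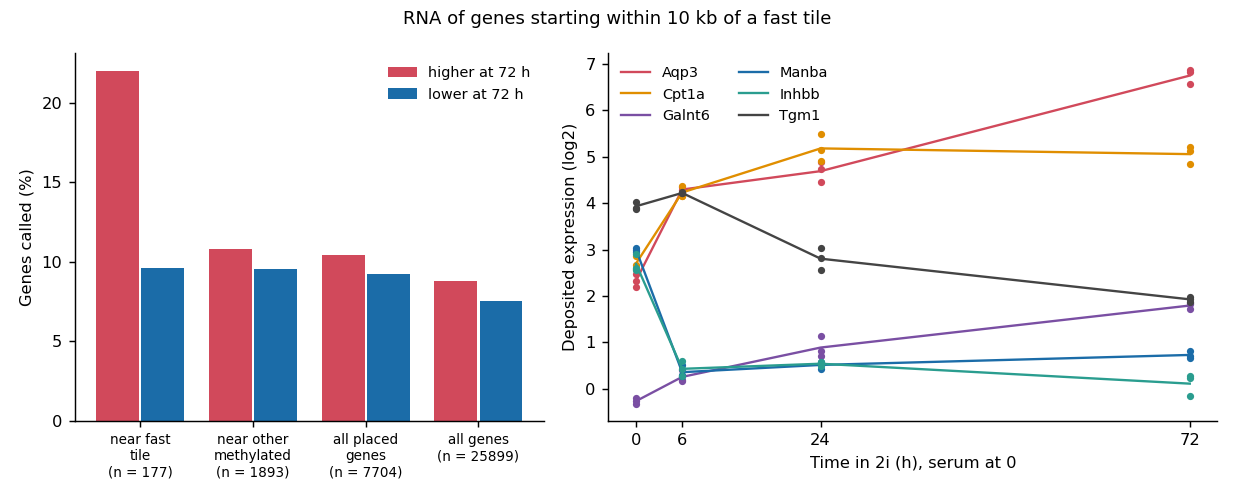
Left: percent of genes called higher or lower at 72 h of 2i than in serum (y axis) for genes within 10 kb of a fast tile, genes near other methylated tiles, all placed genes and all genes. Right: deposited log2 expression (y axis) against time in 2i in hours (x axis) for 6 genes near a fast tile, with a point per library and lines through means. Of the genes near fast tiles 22% were higher, against 10.8% near other methylated tiles, and Aqp3, Cpt1a and Galnt6 rise while Manba, Inhbb and Tgm1 fall.

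The genes named next were chosen after their values were seen, as the 6 higher and 4 lower genes with the smallest adjusted p. Aqp3, a channel for water and glycerol, stood at 2.19, 2.32 and 2.48 on the log2 scale in serum, at 4.34, 4.25 and 4.29 after 6 h, at 4.74, 4.88 and 4.45 after 24 h, and at 6.82, 6.87 and 6.56 after 72 h (log2 change 4.42, SE 0.142, adjusted p = 1.84e-08 by limma). The groups did not overlap between serum and any later time, and the RNA was higher at 6 h already. Its fast tile, 1.97 kb downstream of the start (chromosome 4, 41043001 to 41043500), was at 84.7% and 78.1% in E14 serum, 83.0% and 71.4% after 24 h, 47.0% and 54.9% after 48 h, 25.5% and 28.4% after 72 h, and 15.7% and 7.38% after 168 h. The methylation at 24 h overlapped with serum, with 2 libraries each, at a time when the RNA did not. A link between the 2 changes was not tested.

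Cpt1a, the carnitine palmitoyltransferase that lets long-chain fatty acids into mitochondria, stood at 2.66, 2.58 and 2.86 in serum and at 5.20, 4.85 and 5.12 at 72 h (log2 change 2.35, SE 0.168, adjusted p = 3.09e-06 by limma). The tile 1.55 kb upstream of its start (chromosome 19, 3321501 to 3322000) was at 48.2% and 51.7% in serum, 7.14% and 20.7% at 72 h and 4.08% and 4.26% at 168 h. Galnt6, an enzyme that starts mucin-type O-glycosylation, was higher by 2.06 and has a tile 0.443 kb upstream of its start (chromosome 15, 100560001 to 100560500), at 47.8% and 48.0% in serum and 25% and 15.3% at 72 h. At that tile TET WT stood at 15.3% and 17.5% in serum and TET TKO at 56.2% and 60%. Pdlim4 (log2 change 3.22), Letmd1 (2.33) and Spsb1 (2.20) were the other 3 higher genes.

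Manba, a lysosomal beta-mannosidase gene, fell from 3.00, 3.04 and 2.95 in serum to 0.81, 0.71 and 0.66 at 72 h (log2 change -2.27, SE 0.11, adjusted p = 2.64e-07 by limma). Its tile 2.17 kb downstream of the start (chromosome 3, 135150501 to 135151000) was at 79.7% and 92.2% in serum and at 51.9% and 18.2% at 72 h, so that the 72 h replicates were far apart. Inhbb, which codes for a subunit of activin B, fell by 2.58, Tgm1, a transglutaminase, by 2.01 and Epha8, an ephrin receptor, by 4.90 on the log2 scale. Epha8 lies near the floor of the table at 72 h, at -6.91, -4.86 and -6.65.

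At the promoter tiles, Atf7ip RNA stood at 4.12, 4.11 and 4.30 in serum, at 1.79, 2.26 and 3.03 at 24 h, and at 3.15, 2.51 and 3.34 at 72 h (log2 change from serum to 72 h -1.18, SE 0.291, adjusted p = 0.0108 by limma). CN725425 went from 1.09, 0.79 and 0.60 in serum to -0.67, -0.84 and -0.26 at 72 h (log2 change -1.41, SE 0.216, adjusted p = 0.000594 by limma). Neither gene's serum values overlapped with those of 72 h. The Atf7ip replicates of 24 and 72 h followed an order shared by other genes near fast tiles, among them Ubr4. Ubr4 stood at 2.34, 2.93 and 3.89 at 24 h and at 4.1, 3.43 and 4.42 at 72 h. Bri3 ran in the reverse order, at 6.38, 6.12 and 5.11 and at 5.22, 5.63 and 4.72. The part of such differences between libraries in the Atf7ip change was not tested. Because Atf7ip and Gm44140 overlap on opposite strands, and the sources used here do not say whether strand was used in counting, reads of the shared stretch may belong to either. Spag17 lay near the floor of the table in all 12 libraries and differed by -0.87 on the log2 scale (adjusted p = 0.37, limma).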

How the data were processed

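RRBS covered 51 of the 80 samples, of which 50 were used. For RRBS and ChIP-BS the authors deposited, Bismark coverage files on build NCBIM37, whose lines give a cytosine with its percent of methylation and its 2 counts of calls, methylated and unmethylated. The submitters' processing notes list Bismark 0.12.3, Bowtie2, Trim Galore 0.3.5 and TopHat2 2.0.11. The RNA-seq table that the authors deposited holds log2 values corrected for gene length and depth and set to a common upper quartile, with GRCm38 coordinates, so genes were joined by symbol. Autosomal calls per RRBS library ran from 9403793 to 30269737 in E14, 3992143 to 42773180 in UHRF1 WT, 3142041 to 31959851 in UHRF1 KO, 10532655 to 16373406 in TET WT and 5497021 to 42910683 in TET TKO. RRBS calls carry no molecular identifiers, so PCR copies are counted.

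Deposited call counts were summed per 500-bp tile. Contrasts used a quasi-binomial fit per tile over all libraries of a line set, with dispersion moderated by limma 3.58.1 (R 4.3.3) and Benjamini-Hochberg adjustment over all tiles of the set, run from Python 3.11.15 (numpy 2.4.6, scipy 1.17.1, pandas 2.3.3). Log2 ratios, as used for limma and for ChIP-BS windows, had 0.5 added to both terms. Scripts were tested on simulated data. Named tiles were the 5 with the lowest percent of serum at 72 h among members with 50 or more calls in each E14 library, the 6 of 51 members covered in every usable library whose shallowest library was deepest, the 3 with the largest UHRF1 difference at 72 h, the 3 with the largest TET difference at 96 h, the 3 on either side of the limit, and the 3 longest runs, ties going to the lower chromosome. Members, lists and rules were chosen with earlier results of these data known. A window was placed where 12 or more cytosine positions matched, and windows under 4 CpGs were not searched. On a wrong chromosome, 9 of 21695 searched windows (0.0415%) were placed, against 52.1% on their own. Alternatives were the call minimum, limits, test, covered libraries, a replicate block and leaving out libraries. The table of H3K9me2 reads per bin is on GRCm38 and was not used. The files held 0 columns of other samples.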

Additional observations from a re-analysis of the deposited data

Results flagged for a closer look

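The change from 96 to 168 h differed between UHRF1 KO and UHRF1 WT at the fast tiles, and this contrast was added after the data were seen. UHRF1 WT fell from 29.72% and 29.74% at 96 h to 11.8% and 11.6% at 168 h, while UHRF1 KO stood at 17.7% and 18.7% at 96 h and at 27.01% and 24.9% at 168 h. The KO change minus the WT change had a median of 28.3 points over the 53 covered fast tiles (quartiles 16.6 and 33.7). By the quasi-binomial interaction 33 fast tiles (62.3%) were called, beside 3.92% of all tiles and 42.3% of the other methylated tiles, whose median was 27 points. UHRF1 KO at 168 h against 96 h was called higher at 1 fast tile (1.89%, beside 0.0617% of all tiles and 0.781% of the other methylated tiles), with a median of 7.47 points against 8.29 in the other methylated tiles. UHRF1 WT was called lower at 21 (39.6%, beside 2.81% of all tiles and 36% of the other methylated tiles), with a median of -18.1 points against -18.7. The share called by the interaction was 24.5% without replicate 1 of UHRF1 WT at 168 h, 24.5% without replicate 2 of UHRF1 KO at 168 h, and 5.66% with limma on log2 ratios. Median calls per fast tile were 65 and 38 in the 168 h libraries of WT and 31 and 61 in those of KO. Over the whole set they ran from 31 to 428. The KO libraries of 168 h read 1687808 positions at 4504656 calls and 2528755 positions at 10602291 calls. Replicate 1 of KO at 24 h read 1165757 at 4498179 calls, and replicate 2 of WT at 72 h 1426353 at 10675573 calls. The parts of depth and of the positions read in this difference were not tested.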

How the results depend on the processing

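Of 253 alternatives, 202 left a share or value near the reported one and 51 moved it. Near was a wide class. With only the compared libraries covered, it held 18.5% against 27.6% as reported for E14 168 h against 96 h. It also held pairs of 0%, such as UHRF1 KO below WT at 168 h by limma. Most results were shares called in a preset direction, which cannot turn. The order beside all tiles could turn. For UHRF1 KO below WT at 96 h it was 26.4% beside 5.19% as reported. With only the compared libraries covered it was 7.13% beside 11.4%. Limma on log2 ratios gave 1.35% for E14 48 h against 24 h, 14.6% for 168 h against 96 h, 13.2% for UHRF1 WT at 72 h, 1.89%, 11.3%, 34%, 0% and 0% for UHRF1 KO below WT from serum to 96 h, 32.5% for TET WT, 40.8% for TET TKO, 5.66% for the UHRF1 interaction of 168 h and 96 h and 13.2% for UHRF1 KO above WT at 168 h (22.6% as reported). Covering only the compared libraries gave 14.1% for E14 48 h against 24 h, 0% (106 of 216 members at an unadjusted p under 0.05), 0% (165 of 215), 32.5% and 7.13% for UHRF1 KO below WT in serum, at 24, 48 and 96 h, 0% for TET WT, 36.4% for TET TKO, 30.4% and 28.8% for TET TKO above WT at 48 and 96 h, and 0% for UHRF1 KO above WT at 168 h; these fits hold 3 or 4 libraries. Without a minimum difference the shares were 65.9% (E14 168 h against 96 h, beside 32.8% of all tiles) and 84.9% (UHRF1 at 72 h, beside 15%). A minimum of 50 calls left 253 fast tiles and a single one in the UHRF1 set, with 0% or 100% called; a minimum of 10 calls gave 12.1% for UHRF1 KO above WT at 168 h. A fit of methylated tiles only gave 1.57% for the TET interaction.

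Limits of 40% and 60% of serum gave 469 and 3008 fast tiles. A minimum of 10 calls gave 1597, among them all 1187, and averaging the percent of single positions gave 1346, with 943 shared. Counting RRBS positions in place of CpGs gave a median of 7, as in the other methylated tiles. The H3K9me2 ratio was -0.39 in serum and -0.73 in 2i in 2-kb windows, and -0.61 and -1.55 when positions over 20 calls were left out.

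Leaving out a library gave 23.5% to 29% (E14 48 h against 24 h), 23.3% to 27.2% (168 h against 96 h), 83% to 83% (UHRF1 WT at 72 h), 73.6% to 88.7% (UHRF1 KO at 72 h), 18.9% to 32.1%, 45.3% to 66%, 54.7% to 73.6%, 50.9% to 62.3%, 18.9% to 26.4% and 0% to 0% (UHRF1 KO below WT, serum to 168 h), 52.7% to 56.7% (TET WT), 35.7% to 58.5% (TET TKO), 61.9% to 68.4%, 52.5% to 63.9%, 51.1% to 67.7% and 58.3% to 69.5% (TET TKO above WT, serum to 168 h), 24.5% to 56.6% (UHRF1 168 h and 96 h interaction), 5.66% to 15.1% (UHRF1 KO above WT at 168 h), 1247 to 1760 fast tiles, and 19.2% to 23.2% and 9.6% to 10.2% of nearby genes higher and lower. Where this leaves 1 library in a group, it is assumed to vary like the others.

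Differences between replicates 1 and 2 of a group had correlations of -0.0248 to 0.0329 over pairs of groups. These differences hold the sampling noise of each tile's calls, so they cannot decide whether the labels' numbers pair the samples. With a replicate block, 36% of fast tiles were called for E14 48 h against 24 h, 34% for UHRF1 KO below WT in serum and 68.8% for TET TKO above WT at 96 h, and no share moved by over 1.5 times. The causes of these differences were not tested. Median calls per fast tile ran from 37 to 112 over E14 libraries, which limits the precision of a single tile's level.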

Other observations

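The 3 runs of adjacent fast tiles named here lay on chromosomes 1 and 2. On chromosome 1, the run of 152872001 to 152873000 had means of 64.5% in E14 serum, 28.3% at 72 h and 12.6% at 168 h, and that of 170606501 to 170607500 had 54.4%, 23.7% and 11.6%. The run in Sulf2, which codes for a sulfatase that edits heparan sulfate (chromosome 2, 165931001 to 165932000), had 47.6%, 20.7% and 5.93%. In each of the 3 runs the mean at 168 h was below that at 72 h.

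At the promoter windows of predicted genes, the tile of Gm38634 (chromosome 5, 64648001 to 64648500) stood at 41.0% and 49.0% in E14 serum and 17.5% and 21.5% at 72 h. TET WT was at 25.4% and 27.3% in serum and TET TKO at 75% and 72.7%, with no overlap. The tile of Gm39010 (chromosome 7, 53296501 to 53297000) stood at 50.4% and 64.2% in E14 serum and at 40.7% and 15.7% at 72 h, and at 22.2% and 35.1% in TET WT serum against 76.6% and 66.7% in TET TKO serum.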
